A study of Mus musculus with 24 samples.

Results

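The hearts of transgenic mice that carry the mutated human allele of MYL2 and received no treatment were compared with the hearts of transgenic mice that carry the normal human allele, in 6 polyA RNA libraries out of the 24 libraries of the series, of which 13 are polyA libraries. The comparison covered 12980 of the 23998 genes in the table, those with a mean of 1 FPKM or more over the 13 polyA libraries. FPKM is the number of fragments per kilobase of transcript scaled to the mapped fragments of its library, so it can be compared between genes of a library, while between these libraries it also depends on how they are scaled. MYL2 encodes the ventricular myosin regulatory light chain, which sits at the neck of the myosin head. The mutant group (mutTg) held animals 9, 10 and 11, labelled untreated. The wild-type group (wtTg) held animals 2, 3 and 4, which had been given a control virus, an AAV9 vector without the M7.8L shRNA, at 3 days of age. All 6 animals were on a CD1 background, carried a human MYL2 transgene, shared the genotype label RLC-47K L6 and had their hearts taken at 4 months, so the allele is known only from the sample names. The mutants had no vector and the wild types had one, and the allele and the vector cannot be told apart in this comparison. Values of 3 mutants that did receive the control virus (animals 1, 2 and 3) are given beside some results; they were set against the same wild-type libraries. The labels used here do not give the promoter of the transgene.

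A ventricle under lasting load or with a damaged contractile apparatus is known to return to parts of its fetal gene programme: natriuretic peptides and the slow myosin heavy chain come on, while calcium pump, potassium channel and fatty acid oxidation genes go down. Fibroblasts then lay down collagen and matricellular proteins, and macrophages gather. Mutations of the regulatory light chain are a known cause of inherited cardiomyopathy.

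Values are listed for wild-type animals 2, 3 and 4 and then for mutant animals 9, 10 and 11, as deposited. Differences are mutant minus wild type on the scale of log2(FPKM + 1), from limma, with Benjamini-Hochberg adjusted p-values over the 12980 genes and a call at an adjusted p under 0.05. The median gene was 0.33 lower in the mutants as deposited, and 0.01 higher after the libraries were aligned on their median ratio. As deposited, 5134 genes (39.6% of those tested) were called, 934 higher (7.20%) and 4200 lower (32.4%). After alignment 4897 (37.7%) were called, 2333 higher (18.0%) and 2564 lower (19.8%). The words rose and fell are used below only for the 3468 genes (26.7%) that were called both ways in the same direction, 904 higher (6.96%) and 2564 lower (19.8%). No gene was called in opposite directions. This double requirement weighed more on increases: the smallest aligned increase among these genes was 0.74, and the smallest aligned decrease was -0.23. Genes outside the rule for named genes that complete a count of 5 or fewer or list members that did not pass, most of the genes off in one group, and Per1, Tef and Myl4 were named after their values were seen. Unless stated otherwise, log2 differences, standard errors (SE) and adjusted p-values are those after alignment. The 2 groups did not overlap for 6352 genes (48.9%) as deposited and for 6786 (52.3%) after alignment, so a lack of overlap in a single gene was common.

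**Figure D1:**
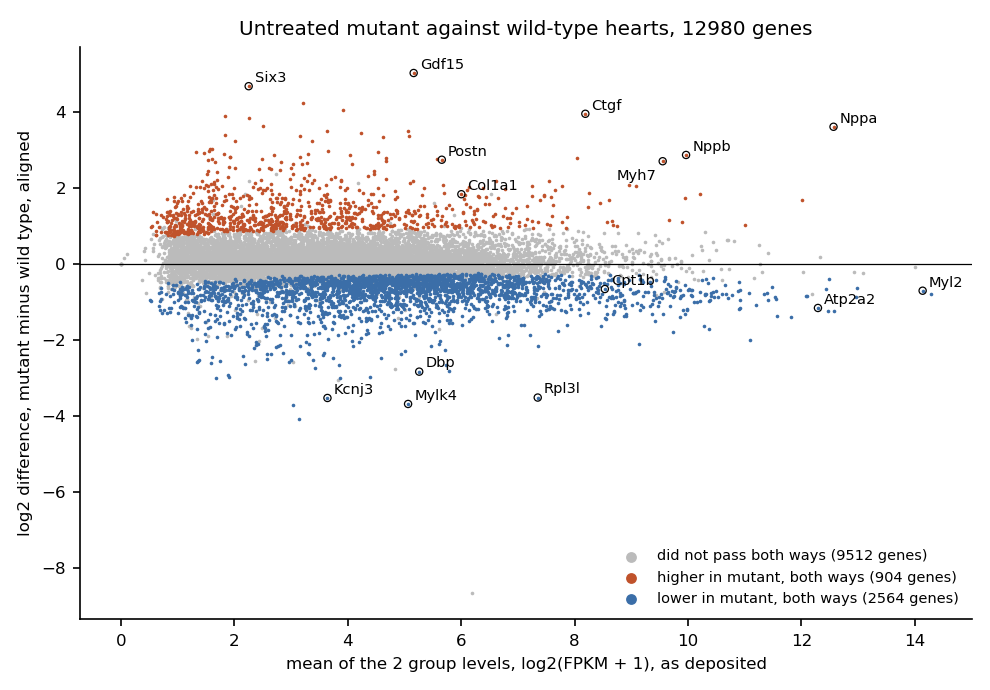
Each of the 12980 tested genes is a point, with the mean of the 2 group levels in log2(FPKM + 1) on the x axis and the aligned log2 difference, mutant minus wild type, on the y axis. The 904 genes higher both ways reach 5.01 (Gdf15), and Mylk4 lies at -3.68 and Rpl3l at -3.51 among the genes lower both ways.

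The 6 libraries were those of hearts by their markers: the 17 cardiomyocyte markers summed to 96759 to 122197 FPKM in the wild types and 49042 to 70826 FPKM in the mutants, and the 8 lung and thymus markers to at most 0.94 FPKM. The cardiomyocyte sums include Myh6, listed at 0 in wild-type animal 2 and mutant 11, so they are not fully comparable between libraries. FPKM totals ran from 908670 to 1067832 in the wild types and from 580948 to 800840 in the mutants, and no source used here gives the number of reads behind them, so the depth is unknown. The library medians of mutants 10 and 11 lay 0.54 and 0.47 below the mean of the 13 libraries on the log2 scale, and those of the other 4 between -0.10 and 0.10. After alignment, the median gene differed by 0.13 to 0.15 (absolute log2) between wild types, by 0.17 to 0.23 between mutants and by 0.31 to 0.40 across the groups. Wild-type animal 3 stood apart in liver transcripts, with albumin (Alb) at 66.3 FPKM against 0.07 to 2.71 in the other 5, and had 8.31 FPKM of Xist although its Y-linked Ddx3y (39.4 FPKM) was that of a male. By Ddx3y each group held 2 males and 1 female. The control-virus mutants given beside some results were all female by it, with Ddx3y at 0.05, 0 and 0 FPKM. They were thus not matched in sex to either group, and the part of sex in those values was not tested. For 18 tested genes a library was listed at 0 beside a value above 5 FPKM in the same group, Myh6 and the ribosomal RNA gene Rn45s among them. In bulk tissue, fewer cells of a type and less RNA per cell cannot be told apart.

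The mouse Myl2 row, the counterpart of the transgene, fell. It stood at 24318, 25300 and 29017 FPKM in the wild types and at 14425, 11466 and 11216 FPKM in the mutants. The groups did not overlap, the difference was -0.71 (SE 0.12) and the adjusted p was 0.00222. Without alignment it was -1.09. The row of the table named for the human transgene (hMyl2) was listed at 0 in all 6 libraries, in carriers of either allele, so it does not check the labels. The mouse and human messages are alike, and whether fragments of the transgene were counted under mouse Myl2 was not tested. Myl2 made up 2.61% of the wild-type FPKM total and 1.88% of the mutant total.

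The genes of the hypertrophic and fetal programme formed a list of 24 tested genes, of which 14 rose and 2 fell. The list's median difference was 1.04 as deposited and 1.41 aligned, beside -0.33 and 0.01 over all genes. Nppa encodes atrial natriuretic peptide, a hormone that adult ventricles make little of. It was at 1459, 3492 and 1316 FPKM in the wild types and at 17106, 18518 and 17072 FPKM in the mutants. The mutant values were close together and all above the highest wild type, and the difference was 3.60 (SE 0.34, adjusted p 0.000187). Averaged over the mutants, Nppa was the most abundant transcript, at 2.73% of the FPKM total, against rank 54 and 0.207% in the wild types. In mutant 9 taken alone, the gene Actc1 had a larger share than Nppa. Nppb, the gene of brain natriuretic peptide, was at 291, 539 and 449 FPKM against 2602, 2606 and 1801 FPKM, a difference of 2.86 (SE 0.21, adjusted p 7.88e-05). Both peptides lower blood pressure and promote salt excretion.

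Myh7, the slow myosin heavy chain of the fetal mouse ventricle, was at 319, 263 and 418 FPKM in the wild types and at 2202, 1193 and 1655 FPKM in the mutants. The lowest mutant was above the highest wild type, with a difference of 2.70 (SE 0.18, adjusted p 5.93e-05). For its adult partner Myh6 no comparison could be made, because the file lists 0 for wild-type animal 2 and mutant 11 beside 12709 and 11042 FPKM in the other wild types and 5150 and 3078 FPKM in the other mutants. Ankrd1, a stretch-responsive protein of the Z-disc and the nucleus, was at 2386, 2604 and 2846 FPKM against 7840, 6348 and 5296 FPKM. Its rank in mean abundance of the group went from 41 to 6, and it differed by 1.68 (SE 0.11, adjusted p 6.08e-05). Rcan1, an inhibitor of calcineurin that is itself switched on by calcineurin signalling, was at 94.3, 121 and 124 FPKM against 717, 578 and 511 FPKM, a difference of 2.78. Uchl1, a ubiquitin hydrolase best known from neurons, was at 12.3, 7.73 and 5.71 FPKM against 48.3, 45.4 and 70.3 FPKM, a difference of 2.94. Acta1, the skeletal actin often used as a marker of this programme, was not called: its values were 998, 3578 and 865 FPKM against 2325, 1158 and 400 FPKM, with wild-type animal 3 the highest of all 6 and mutant 11 the lowest. The 2 members that fell were the LIM protein gene Fhl2 (-0.90) and Cited4 (-1.0).

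**Figure D2:**
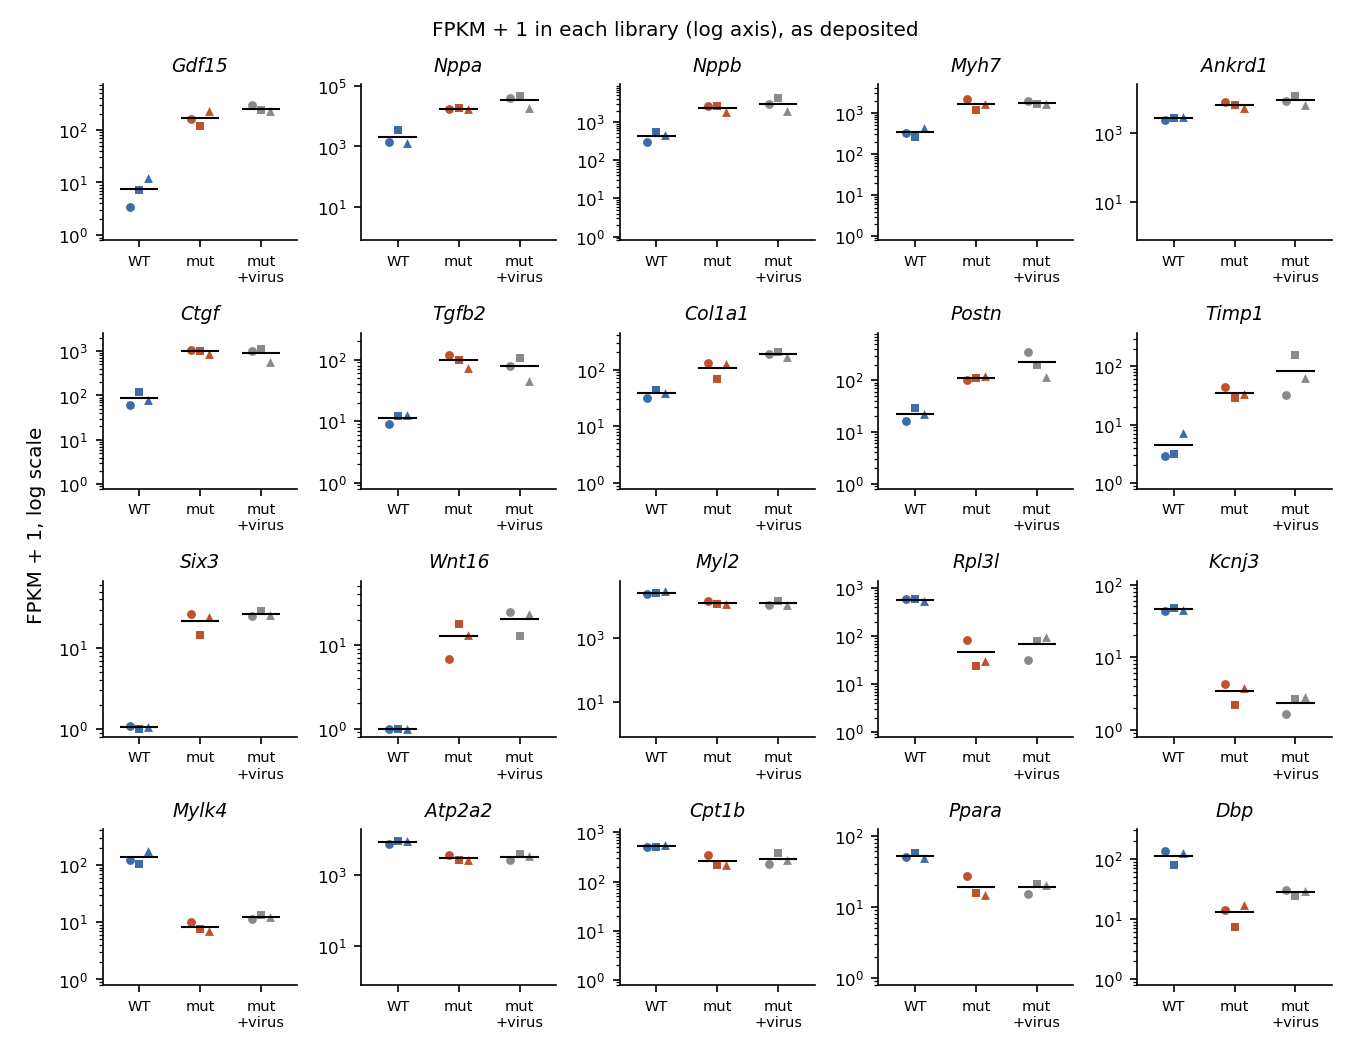
FPKM + 1 on a log axis for 20 genes, with 1 point per animal (circle, square and triangle in the order of animal numbers), the wild types (WT), the untreated mutants (mut) and the control-virus mutants (mut +virus), as deposited; lines mark group means. The wild types and the untreated mutants do not overlap in any of the 20 panels, and Nppa goes from 1316 to 3492 FPKM in the wild types to 17072 to 18518 FPKM in the untreated mutants.

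Promoters of 4 of the genes that rose are shown because each holds the M-CAT element CATTCC (on one strand or the other), to which TEAD factors bind and which is known from muscle promoters. The sequences are the 250 bases before a RefSeq start of transcription, 5′ to 3′ on the gene's strand, from RefSeq on GRCm38.p6, a later build than that of the deposited values. Capitals mark the element. The windows are Nppb (chr4:147985650-147985899, plus strand), Myh7 (chr14:54994627-54994876, minus strand), Ankrd1 (chr19:36119845-36120094, minus strand) and Acta2 (chr19:34255374-34255623, minus strand).
Nppb: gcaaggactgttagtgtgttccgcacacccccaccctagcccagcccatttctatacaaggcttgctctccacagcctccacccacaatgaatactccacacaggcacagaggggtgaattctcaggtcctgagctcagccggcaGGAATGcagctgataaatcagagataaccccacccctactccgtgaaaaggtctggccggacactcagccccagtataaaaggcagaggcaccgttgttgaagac
Myh7: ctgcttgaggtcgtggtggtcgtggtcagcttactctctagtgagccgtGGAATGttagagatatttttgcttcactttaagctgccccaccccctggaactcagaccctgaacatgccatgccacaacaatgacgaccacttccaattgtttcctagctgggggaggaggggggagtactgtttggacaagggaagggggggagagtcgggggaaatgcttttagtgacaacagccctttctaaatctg
Ankrd1: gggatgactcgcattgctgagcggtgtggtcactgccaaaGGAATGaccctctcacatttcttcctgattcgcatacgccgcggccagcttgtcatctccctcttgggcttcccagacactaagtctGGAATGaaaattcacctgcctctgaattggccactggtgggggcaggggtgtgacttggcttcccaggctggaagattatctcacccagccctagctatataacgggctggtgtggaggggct
Acta2: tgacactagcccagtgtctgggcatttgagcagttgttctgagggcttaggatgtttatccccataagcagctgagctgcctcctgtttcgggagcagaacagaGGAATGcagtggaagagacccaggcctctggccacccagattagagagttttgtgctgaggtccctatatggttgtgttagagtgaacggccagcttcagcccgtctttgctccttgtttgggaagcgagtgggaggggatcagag
The element begins 105 bases before the start in Nppb, 201 in Myh7, 210 and 123 in Ankrd1 and 146 in Acta2. Myh7 has another RefSeq start, not shown, and the 250 bases before that start do not hold the element. In windows from 250 bases before to 50 bases after the start, searched on both strands, CATTCC was in 22.6% of the 31 windows of the list and in 14.7% of the 32851 windows of all genes in the RefSeq table. The CArG box, the binding element of serum response factor, was in 22.6% of the list's windows and 1.63% of all windows. These shares cover all tested list members, whether they rose, fell or did not pass. Among members called both ways, the CArG box lay before a start in Fhl1 and Myl9, which rose, and in Fhl2, which fell. Such matches describe the letters of a window and not a factor's binding.

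Among the 904 genes that rose, Gdf15 had the largest aligned difference. It encodes a secreted stress cytokine that acts on the hindbrain to curb appetite. It was at 2.4, 6.22 and 10.9 FPKM in the wild types and at 163, 117 and 229 FPKM in the mutants, a difference of 5.01 (SE 0.40, adjusted p 0.000103). Control-virus mutants stood at 289, 238 and 231 FPKM. Six3, a homeobox gene of the developing forebrain and eye, went from 0.08, 0 and 0.07 FPKM to 25.2, 13.6 and 23.1 FPKM, a difference of 4.67. Wnt16, a secreted Wnt ligand, was listed at 0 in all 3 wild types and at 5.82, 16.9 and 12 FPKM in the mutants. Gpnmb, a glycoprotein of lipid-laden macrophages, went from 1.49, 1.32 and 1.47 FPKM to 28.5, 36.9 and 37.4 FPKM. Krt18, a simple epithelial keratin, was below 1.02 FPKM in every wild type and between 12 and 16.9 FPKM in the mutants. Nmrk2, a muscle kinase that makes NAD from nicotinamide riboside, was at 9.40, 9.88 and 13.7 FPKM against 122, 71.9 and 89.1 FPKM, a difference of 3.35 (SE 0.14). Sprr1a, a cornified envelope protein induced in stressed cardiomyocytes, was under 0.41 FPKM in the wild types and at 6.12, 8.10 and 14.2 FPKM in the untreated mutants. The control-virus mutants had 45.6, 34.6 and 26.0 FPKM.

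Genes off in one group and on in the other were few. Below 0.5 FPKM in every wild type and above 2 FPKM in every mutant were 11 genes: Six3 and its antisense neighbour Six3os1, Wnt16, Sprr1a, Egr2, Grip1, Kcnj6, Nrip3, Ryr3, Syndig1 and Wdr16. Reads of Six3 and Six3os1 cannot be told apart, since the counting is not stated to use the strand. Ryr3, an intracellular calcium release channel, went from at most 0.39 FPKM to 5.71, 8.61 and 4.07 FPKM. The opposite pattern was found in 14 genes, among them Pfkfb1 (9.40, 7.42 and 12.2 FPKM against 0.43, 0.16 and 0.30 FPKM) and the skeletal muscle chloride channel Clcn1 (5.02, 5.21 and 5.50 FPKM against 0.05, 0 and 0.08 FPKM).

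Of 20 collagen chains tested, 18 rose and none fell, with a median difference of 0.90 as deposited and 1.20 aligned. Fibrillar collagens make up scar and the network between muscle fibres. Col1a1 was at 30.7, 43.3 and 37.8 FPKM in the wild types and at 127, 68.2 and 124 FPKM in the mutants. Its lowest value was that of mutant 10, still above every wild type, and the difference was 1.83 (SE 0.19, adjusted p 0.000282). Col3a1 was at 48.4, 66.9 and 70.6 FPKM against 205, 146 and 219 FPKM, a difference of 1.98. Col8a1, a short-chain collagen of remodelling vessels and hearts, differed by 1.90 and Col1a2 by 1.58. The chains that did not pass both ways were the basement membrane chains Col4a2 (0.81) and Col18a1 (0.28).

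Of the matricellular and crosslinking genes 29 of 40 rose and 1, the protease inhibitor Timp3 (-0.41), fell, with medians of 0.98 as deposited and 1.34 aligned. Ctgf, a target of TGF-beta and of YAP that promotes matrix deposition, was at 58.5, 120 and 78.8 FPKM in the wild types and at 1040, 1021 and 881 FPKM in the mutants. The mutant values lay within a narrow band, and the difference was 3.94 (SE 0.21, adjusted p 2.94e-05). Postn, the gene of periostin, which activated fibroblasts secrete, was at 15.3, 27.7 and 21.7 FPKM against 101, 112 and 122 FPKM, a difference of 2.73. Timp1, an inhibitor of matrix metalloproteases, was at 1.86, 2.10 and 6.23 FPKM against 43.3, 27.3 and 32.5 FPKM. Mfap4 (3.32), Cilp (3.22) and the crosslinking enzyme Lox (1.51) rose as well. Fibronectin (Fn1) did not pass: it was at 12, 13.6 and 14.7 FPKM against 14.2, 9.64 and 21.0 FPKM, overlapping as deposited.

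In the TGF-beta axis 11 of 25 genes rose and 2 fell. The ligand gene Tgfb2 was at 8.04, 11.1 and 11.8 FPKM in the wild types and at 119, 99.3 and 73.5 FPKM in the mutants, a difference of 3.49 (SE 0.15, adjusted p 1.34e-05). Inhba, which encodes the activin A subunit, differed by 2.03, the latent TGF-beta binding protein gene Ltbp2 by 2.21 and the activin antagonist Fstl3 by 2.00. The genes that fell were the co-receptor Tgfbr3 (-0.30) and Ltbp1 (-0.77). Of 17 fibroblast markers 7 rose and none fell, with medians of 0.25 as deposited and 0.63 aligned. Meox1, a homeobox gene of activated fibroblasts, was at 7.93, 12.7 and 7.37 FPKM against 55.3, 26.1 and 37.4 FPKM. The 18 markers together summed to 2234 to 3096 FPKM in the wild types and 3299 to 5065 FPKM in the mutants, and the part of cell number in the matrix results was not tested. The calls on matrix genes depended on which libraries set the spread. With all 13 polyA libraries in a 4-group model, where 1.54% of all genes were called higher and 19.2% lower, 3 of 20 collagen chains, 8 of 40 matricellular genes and 1 of 17 fibroblast markers were called higher. Leaving the library labelled shRNA replicate 8, whose median lay 0.80 above the mean, out of that model gave 14, 25 and 7, beside 5.22% of all genes called higher.

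Macrophage markers rose in 18 of 26 cases and fell in 1, with medians of 0.88 as deposited and 1.26 aligned. The whole list summed to 674 to 763 FPKM in the wild types and to 1330 to 1647 FPKM in the mutants. Ccr2, the receptor that brings blood monocytes into tissue, was at 1.54, 1.11 and 1.63 FPKM against 12.9, 13.9 and 9.28 FPKM, a difference of 2.76 (SE 0.19, adjusted p 6.45e-05). Lgals3, the gene of galectin-3, was at 2.22, 3.34 and 3.73 FPKM against 27.8, 77.7 and 57.4 FPKM, a difference of 4.03. The marker that fell was Timd4 (-0.66), which is typical of resident macrophages. The other 25 members, among them Cd163, Lyve1 and Folr2, had aligned differences above 0, called or not. Under the 13-library model 6 of the 26 were called higher, beside 1.54% of all genes.

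Genes of antigen presentation rose in 10 of 19 cases and fell in 2, H2-D1 (-0.54) and Tap2 (-0.45). The class II genes, which macrophages, dendritic cells and B cells use to present peptides, lay close together: H2-Ab1 was at 39.7, 39.8 and 36.9 FPKM against 115, 118 and 137 FPKM, and H2-Aa, H2-Eb1 and H2-DMb1 differed by 1.98, 1.93 and 2.03. Complement genes rose in 12 of 18 cases, among them Cd55 (1.68) and C4b (1.66). In the 13-library model 1 of 18 was called higher, beside 1.54% of all genes. As deposited and without wild-type animal 3, 7 complement genes were called higher, beside 5.97% of all genes. Of 25 chemokine and inflammatory genes 11 rose and 1 fell. The monocyte chemokine Ccl8 was at 5.30, 2.81 and 4.01 FPKM against 42.4, 21.6 and 25.8 FPKM, and the acute phase gene Serpina3n at 14.3, 8.89 and 6.88 FPKM against 82.0, 50.1 and 40.6 FPKM. The eotaxin gene Ccl11 moved the other way, from 13.6, 9.11 and 11.3 FPKM to 2.11, 1.92 and 1.29 FPKM. Of 36 interferon-induced genes 2 rose, Ifit2 and Parp9, and the medians were -0.04 and 0.32. Of 4 lymphocyte markers above the limit, Nkg7 (1.21), Gzma (1.27) and Ptprc (1.72), which all leukocytes express, rose. The groups overlapped in Gzma (mutant 9 at 0.50 FPKM, wild-type animal 4 at 0.70 FPKM), and none of the 4 was called in the 13-library model.

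**Figure D3:**
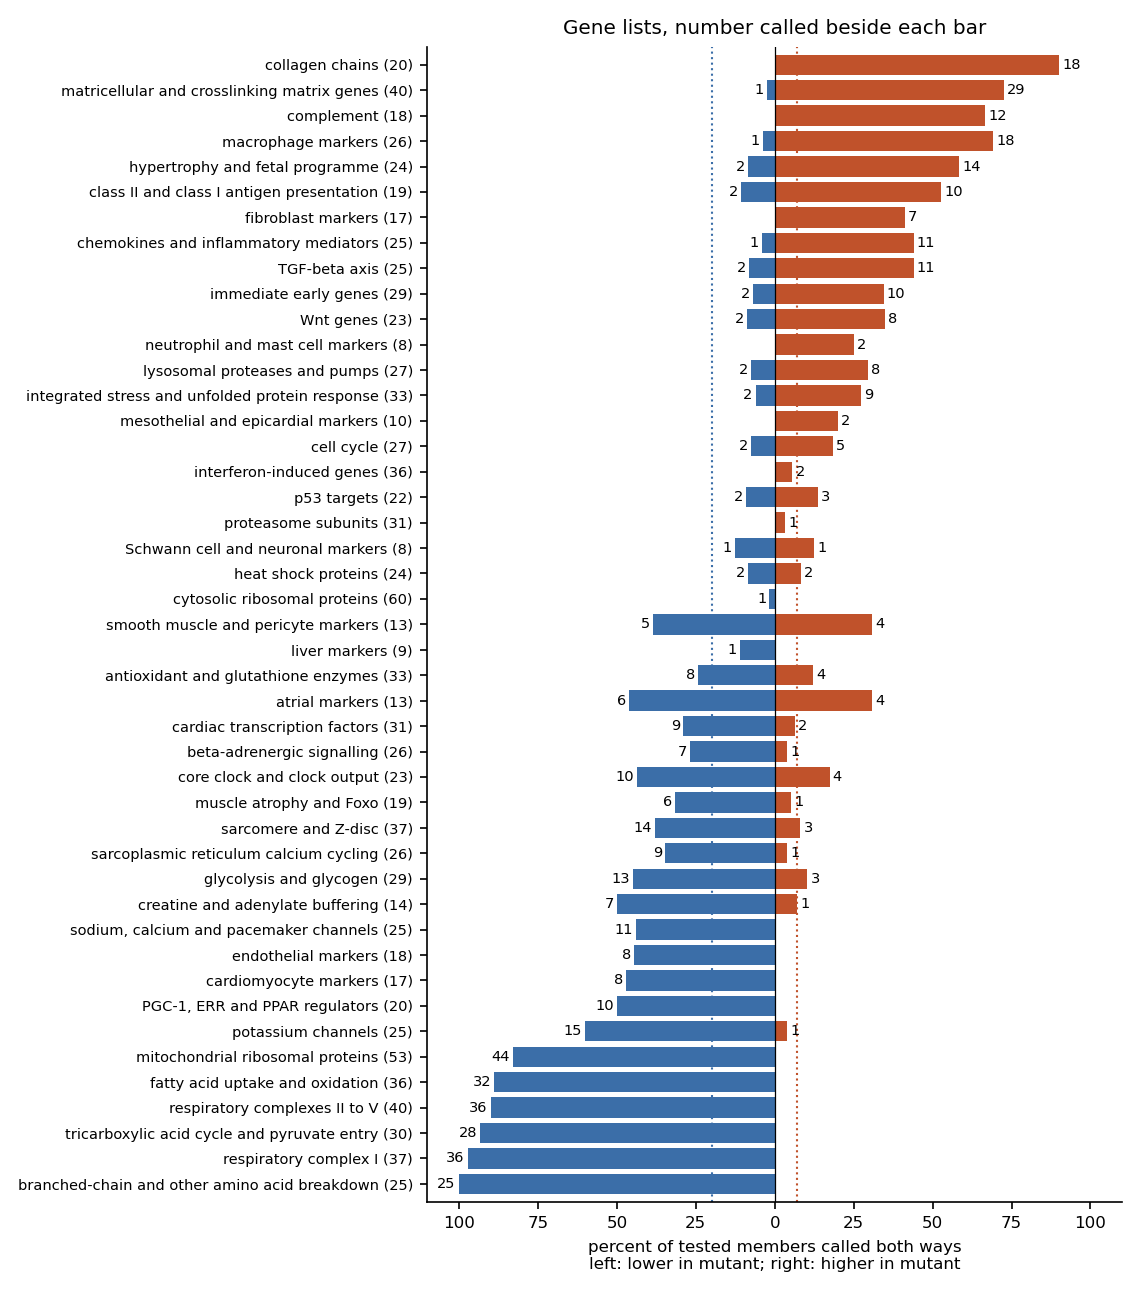
For each list with 8 or more tested genes (number in brackets), the bars show the percent of members called both ways, lower in the mutants to the left and higher to the right, with the number of genes beside each bar. Dotted lines mark the shares over all 12980 genes, 6.96% higher and 19.8% lower; collagens stand at 18 of 20 higher and amino acid breakdown at 25 of 25 lower.

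Most genes of mitochondrial energy metabolism fell, beside 19.8% of all genes. The adult heart burns mainly fatty acids in its mitochondria. Of 36 genes of fatty acid uptake and oxidation 32 fell and none rose, with a median difference of -1.55 as deposited and -1.17 aligned. Acaa2, the last enzyme of the mitochondrial beta-oxidation cycle, was at 1348, 1179 and 1383 FPKM in the wild types and at 340, 191 and 188 FPKM in the mutants, a difference of -2.11 (SE 0.14, adjusted p 6.23e-05). Dgat2, which completes triglyceride synthesis, was at 366, 432 and 321 FPKM against 118, 38.0 and 54.2 FPKM. Cpt1b, the carnitine palmitoyltransferase at the gate of mitochondrial oxidation in muscle, was at 511, 512 and 547 FPKM against 348, 217 and 215 FPKM, a difference of -0.66. Among the members that did not pass both ways were Cd36 (-0.47), Cpt1a (0.07) and Pdk4 (0.44).

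In the tricarboxylic acid cycle and pyruvate entry 28 of 30 genes fell, with medians of -1.26 and -0.88. Idh2, the mitochondrial isocitrate dehydrogenase that yields NADPH, was at 2618, 2255 and 3258 FPKM against 802, 531 and 591 FPKM, a difference of -1.70 (SE 0.14, adjusted p 0.000102). Citrate synthase (Cs) was at 980, 1132 and 1086 FPKM against 471, 343 and 336 FPKM, and Mpc2, a subunit of the mitochondrial pyruvate carrier, differed by -1.33. Respiratory complex I, the entry point of NADH, had 36 of 37 genes lower, with the remaining gene, Ndufb4, at -0.79 without passing. The medians were -1.23 and -0.84. Ndufv3 was at 1257, 1292 and 1501 FPKM against 491, 343 and 421 FPKM. Of complexes II to V 36 of 40 genes fell (medians -1.18 and -0.80). The heart- and muscle-type subunits of complex IV, Cox7a1 (-1.41) and Cox8b (-1.36), were among them, while the widely expressed Cox6a1 (0.30) and Cox8a (0.22) were among the 4 that did not pass. Other widely expressed subunits had a smaller mean share of the FPKM total in the mutants. Cox4i1 went from 0.659% in the wild types to 0.436%, and Cox5a from 0.265% to 0.177%. Mitochondrial ribosomal protein genes fell in 44 of 53 cases, with an aligned median of -0.59. Of 60 cytosolic ribosomal protein genes 1 fell, with a median of -0.25 as deposited and 0.11 aligned. That gene, Rpl29, was at 68.4, 102 and 0.95 FPKM in the wild types, and Rpl21, Rpl3 and Rps18 were also spread widely within the wild types. These genes have many near-identical copies, so their values are uncertain.

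**Figure D4:**
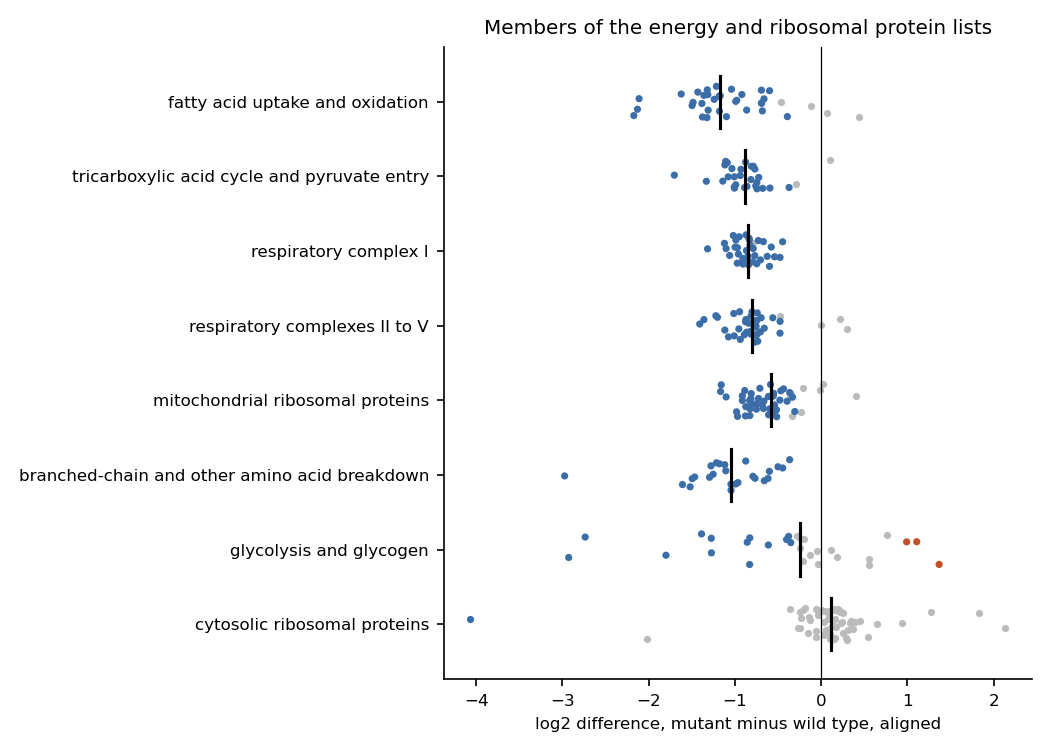
Aligned log2 difference, mutant minus wild type, of each tested member of 8 lists; blue points fell and orange points rose both ways, grey points did not pass both ways, and the bar is the list's median. Medians of the mitochondrial lists lie between -1.17 and -0.59, and that of the cytosolic ribosomal protein genes is at 0.11.

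All 25 genes of amino acid breakdown fell, with medians of -1.43 and -1.05. Gpt, the cytosolic alanine transaminase, was at 61.3, 65.6 and 65.3 FPKM against 7.61, 5.27 and 4.30 FPKM, a difference of -2.97 (SE 0.12, adjusted p 1.13e-05). Ivd and Mccc2, enzymes of leucine breakdown, differed by -1.61 and -1.52. Glycolysis and glycogen genes were divided, with 13 of 29 lower and 3 higher. Pfkfb1, Fbp2 (33.3, 18.9 and 35.3 FPKM against 4.40, 2.33 and 1.62 FPKM), the muscle enolase Eno3 (-1.80) and Ldhb (-1.39) fell, and the widely expressed glucose transporter gene Slc2a1 (1.37), the glycogen primer gene Gyg (1.11) and the branching enzyme gene Gbe1 (0.99) rose. In creatine and adenylate buffering 7 of 14 genes fell and 1, Gatm (1.35), rose. Slc25a4, the ADP/ATP carrier of heart mitochondria, was at 10299, 10867 and 10540 FPKM against 4576, 2880 and 3036 FPKM, and muscle creatine kinase (Ckm) at 3063, 3211 and 3458 FPKM against 1402, 883 and 1067 FPKM.

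Regulators of these genes fell in 10 of 20 cases, and none rose. Ppara, the nuclear receptor that drives fatty acid oxidation genes, was at 48.6, 56.4 and 47.8 FPKM in the wild types and at 25.9, 14.4 and 13.6 FPKM in the mutants, a difference of -1.15 (SE 0.15, adjusted p 0.000703). Its dimer partner Rxrg differed by -1.55 and Klf15 by -1.10. Esrra, which encodes ERR alpha, differed by -0.49 (adjusted p 0.0171). The coactivator gene Ppargc1a was at 37.3, 48.5 and 43.0 FPKM against 32.7, 27.5 and 21.9 FPKM; it was called lower as deposited and had an adjusted p of 0.119 after alignment. AAGGTCA, the half-site bound by the ERR receptors, was in 8.33% of the 132 promoter windows of the fatty acid, tricarboxylic acid and respiratory chain genes (115 of 139 genes matched) and in 4.72% of all windows.

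When the libraries were instead scaled to equal FPKM totals, 34.5% of all genes were called higher and 11.9% lower, and the medians of the energy lists stayed below 0: 31 of 36 fatty acid genes, 33 of 37 complex I genes and 22 of 25 amino acid genes were called lower. For the regulators this count was 5 of 20 lower and 2 higher. The mutants' cardiomyocyte marker list, most of it contractile genes, had 8 of 17 genes lower and none higher both ways, and 6 lower and 1 higher at equal FPKM totals. Its median there was -0.15, beside -0.94 for the fatty acid and -0.61 for the complex I list, and its part in these results was not tested.

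Calcium cycling and contractile genes were mixed. Of 26 genes of the sarcoplasmic reticulum 9 fell and 1 rose, beside 19.8% and 6.96% of all genes. Atp2a2, which encodes the calcium pump SERCA2, was at 7585, 9127 and 8846 FPKM in the wild types and at 3546, 2588 and 2698 FPKM in the mutants, a difference of -1.16 (SE 0.10, adjusted p 0.000116). Its inhibitor phospholamban (Pln) fell by 0.84, from 6206, 6673 and 6878 FPKM to 3473, 2836 and 2259 FPKM. Sln, the atrial inhibitor of the same pump, was the list member that rose, from at most 0.68 FPKM to 6.85, 3.11 and 2.83 FPKM. The count covers the list only. Ryr3, also a calcium release channel gene, is given above, at most 0.39 FPKM in the wild types against 5.71, 8.61 and 4.07 FPKM in the mutants. Hrc, a calcium-binding protein of the reticulum, differed by -1.51 and Camk2a by -1.49. The release channel gene Ryr2 was at 430, 397 and 337 FPKM against 304, 228 and 224 FPKM, lower as deposited and with an adjusted p of 0.181 after alignment.

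Sarcomere and Z-disc genes fell in 14 of 37 cases and rose in 3, which were Myh7, desmin (Des, 1.01) and Synpo2l (1.94). The shares over all genes were 19.8% and 6.96%. Mylk4, a myosin light chain kinase of heart and muscle, was at 122, 105 and 177 FPKM against 8.94, 6.64 and 6.11 FPKM, a difference of -3.68 (SE 0.17, adjusted p 1.93e-05). Tcap, the titin cap at the Z-disc, was at 4897, 3842 and 5288 FPKM against 1741, 614 and 663 FPKM. Tnni3, the adult cardiac inhibitory troponin, differed by -1.23 and the ventricular essential light chain Myl3 by -0.88. Rpl3l, a ribosomal protein made only in striated muscle in place of Rpl3, was at 602, 585 and 552 FPKM against 81.9, 23.1 and 29.3 FPKM, a difference of -3.51. The medians of the sarcoplasmic reticulum and sarcomere lists (-0.09 and -0.18 aligned) turned to 0.14 and 0.06 at equal FPKM totals, so neither list has a direction that holds across scalings. The same held for the lists of sodium, calcium and pacemaker channels (-0.19 and 0.03), adrenergic signalling (-0.14 and 0.09) and cardiac transcription factors (-0.18 and 0.04).

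In the list of potassium channel genes 15 of 25 fell, and 1, Kcnj14 (1.41), rose. The count covers the list only. Kcnj6, a potassium channel gene named above among those off in the wild types, went from at most 0.27 FPKM to 5.61, 7.21 and 4.53 FPKM. Kcnj3, a subunit of the acetylcholine-gated channel, was at 42.9, 46.4 and 44.2 FPKM in the wild types and at 3.33, 1.19 and 2.74 FPKM in the mutants, a difference of -3.52 (SE 0.21, adjusted p 3.39e-05). Kcnd2, a pore subunit of the transient outward current, was at 20.6, 21.8 and 20.8 FPKM against 5.07, 5.16 and 5.07 FPKM. Kcnj2, the main channel of the resting potential in ventricle, differed by -0.90, Kcnv2 by -2.38 and the sulfonylurea receptor Abcc9 by -1.48. Potassium currents end the action potential. Among sodium, calcium and pacemaker channels 11 of 25 fell and none rose. Scn4b, a beta subunit of the sodium channel, was at 58.9, 84.1 and 91.0 FPKM against 16.6, 12.3 and 7.08 FPKM, and the pacemaker channel Hcn4 at 5.85, 5.00 and 5.62 FPKM against 1.25, 0.65 and 0.85 FPKM. Of 26 genes of adrenergic signalling 7 fell, among them both alpha-1 receptor genes Adra1b (-1.41) and Adra1a (-1.26), and 1, the receptor kinase gene Grk5 (1.29), rose. Over all genes 19.8% fell and 6.96% rose.

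Atrial markers went in both directions, with 4 of 13 higher (Nppa, Sln, Myl4 and Dkk3) and 6 lower, Kcnj3 among them. In the list of 31 cardiac transcription factors 9 fell and 2, Six3 and Runx1 (0.93), rose, beside 19.8% and 6.96% of all genes. Six3, described above as a forebrain and eye gene, was at most 0.08 FPKM in the wild types. The list was chosen with earlier results known, so the place of Six3 in it adds nothing to its increase. Hopx was at 684, 566 and 858 FPKM against 233, 160 and 198 FPKM, Irx4, a ventricular factor, differed by -1.04 and Tbx5 by -0.83.

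The circadian clock list was divided. Its activators and its output genes take turns over the day, and no source used here gives the hour at which hearts were taken. Of 23 tested genes 4 rose and 10 fell, with medians of -0.62 as deposited and -0.32 aligned. Arntl, the gene of the activator BMAL1, was at 1.14, 4.03 and 2.13 FPKM in the wild types and at 18.1, 12 and 9.70 FPKM in the mutants, a difference of 2.46 (SE 0.27, adjusted p 0.00037). The other genes that rose were its relative Npas2 (0.92), the repressor Nfil3 (1.34) and Lonrf3 (1.04). Dbp, an output factor, was at 134, 76.9 and 127 FPKM against 13.1, 6.39 and 16.2 FPKM, a difference of -2.83 (SE 0.32, adjusted p 0.000414). Ciart, a repressor of the clock, was at 19.0, 9.62 and 12.7 FPKM against 2.77, 2.44 and 1.65 FPKM, and Hlf at 21.5, 18.0 and 17.3 FPKM against 5.46, 5.02 and 4.92 FPKM. The groups did not overlap for Arntl, Dbp, Ciart or Hlf.

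The promoters of Ciart (chr3:95882229-95882478, minus strand) and Per1 (chr11:69098699-69098948, plus strand) are shown as 2 of the 4 clock genes that were called both ways and hold the E-box CACGTG, through which BMAL1 acts, in the bases before the start. Of the others, Tef fell (-1.23) and Lonrf3 rose. They are the 250 bases before the start, as above, with the E-box in capitals.
Ciart: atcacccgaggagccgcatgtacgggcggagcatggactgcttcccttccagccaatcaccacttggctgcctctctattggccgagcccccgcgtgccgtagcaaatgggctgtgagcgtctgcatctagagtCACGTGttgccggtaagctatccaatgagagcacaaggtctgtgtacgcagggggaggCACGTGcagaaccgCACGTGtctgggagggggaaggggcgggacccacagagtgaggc
Per1: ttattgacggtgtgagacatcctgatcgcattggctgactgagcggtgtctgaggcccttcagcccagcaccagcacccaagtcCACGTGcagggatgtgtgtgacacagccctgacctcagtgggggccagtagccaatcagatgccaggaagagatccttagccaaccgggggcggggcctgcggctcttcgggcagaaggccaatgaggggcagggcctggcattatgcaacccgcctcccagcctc
The Ciart window has 3 E-boxes, beginning 116, 58 and 44 bases before the start, and the Per1 window 1, at 166 bases. Per1 has another RefSeq start, not shown, and the 250 bases before that start hold no CACGTG. Per1 was at 25.3, 35.6 and 37.7 FPKM in the wild types and at 10.4, 7.66 and 13.6 FPKM in the untreated mutants, a difference of -1.21. The control-virus mutants had 31.5, 28.0 and 29.0 FPKM of Per1, within the wild-type range, and 28.9, 23.3 and 27.9 FPKM of Dbp, between both groups. Their Arntl (10.5, 11.2 and 7.95 FPKM), Ciart (2.05, 3.86 and 2.24 FPKM) and Hlf (5.69, 5.77 and 5.05 FPKM) lay near the untreated mutants and outside the wild-type range. CACGTG was in 30.8% of the 26 windows of the clock list (20 of 23 genes matched) and in 7.15% of all windows.

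**Figure D5:**
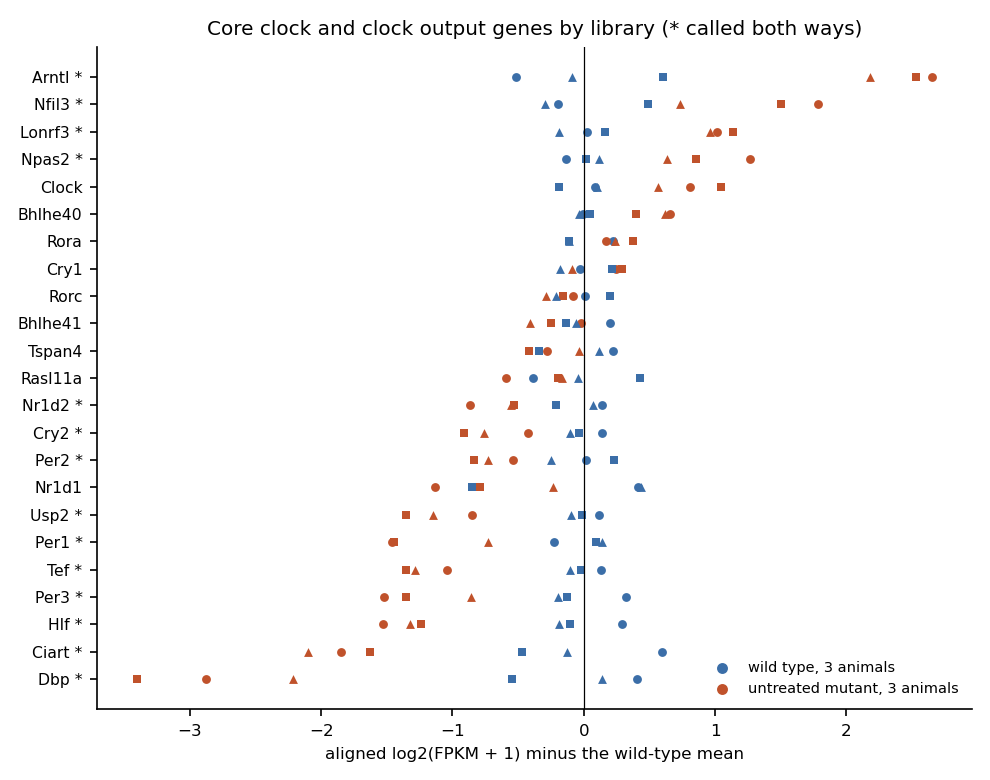
Aligned log2(FPKM + 1) of the 23 clock genes in each library, minus the mean of the 3 wild types, with blue points for wild types and orange points for untreated mutants (circle, square and triangle in the order of animal numbers); asterisks mark the 14 genes called both ways. Arntl, at 2.46, and Dbp, at -2.83, are the ends of the list.

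Among immediate early genes, which answer a stimulus within minutes, 10 of 29 rose and 2 fell. Myc was at 2.08, 2.90 and 3.26 FPKM in the wild types and at 22.5, 12.8 and 13.2 FPKM in the mutants, a difference of 2.52. Fos (1.64), Egr2 (2.02), Egr3 (1.7) and Atf3 (2.02) rose. Klf2 (-0.54) and Dusp1 (-0.49) fell. The integrated stress and unfolded protein response list had 9 of 33 genes higher and 2 lower. Besides Gdf15 these included the glutathione-degrading enzyme Chac1 (2.54, 6.01 and 3.57 FPKM against 12.2, 14.8 and 18.3 FPKM), asparagine synthetase (Asns, 1.85) and Nupr1 (1.98).

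Antioxidant genes went both ways. Mitochondrial superoxide dismutase (Sod2) fell, from 445, 513 and 504 FPKM to 212, 125 and 121 FPKM, and the extracellular peroxidase Gpx3 rose, from 272, 329 and 312 FPKM to 869, 923 and 1119 FPKM. In the list 4 of 33 rose and 8 fell, beside 6.96% and 19.8% of all genes. After alignment alone 15 were called higher and 8 lower, and at equal FPKM totals 20 and 5. The list thus has no direction that holds across scalings. Proteasome subunits gave 1 call in 31, Psmd8 (1.04). Heat shock genes gave 2 higher, Hsp90aa1 (1.48) and Hspa1l (1.17), and 2 lower, the mitochondrial chaperones Hspd1 (-0.51) and Hspa9 (-0.41), of 24. At equal FPKM totals, where 34.5% of all genes were called higher, 22 of the 31 proteasome genes and 12 of the 24 heat shock genes were called higher and none lower, as were 17 of the 36 interferon-induced genes. Lysosomal genes rose in 8 of 27 cases, among them the cathepsin gene Ctss (19.5, 26.7 and 20.4 FPKM against 75.6, 60.4 and 74.4 FPKM).

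Endothelial markers fell in 8 of 18 cases and none rose, with medians of -0.64 and -0.28. The water channel gene Aqp1 was at 311, 380 and 377 FPKM against 157, 140 and 139 FPKM, and Cdh5, the cadherin of endothelial junctions, at 116, 129 and 128 FPKM against 71.5, 57.0 and 70.9 FPKM. At equal FPKM totals 2 of the 18 were called lower and 1 higher. Smooth muscle and pericyte markers did not move as 1 group: Acta2 (1.85) and Myl9 (2.18) were among 4 of 13 that rose, and the smooth muscle myosin Myh11 (15.1, 14.1 and 15.8 FPKM against 6.29, 3.75 and 5.04 FPKM) and the pericyte channel Kcnj8 (-0.89) among 5 that fell. The red cell markers summed to 2033 to 2684 FPKM in the wild types and 632 to 1390 FPKM in the mutants, with 1 of 5, Alas2 (-1.07), passing both ways, and the part of blood content in other results was not tested.

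The leading counts were recomputed without wild-type animal 3, the library with the liver transcripts. After alignment 18 collagen chains, 33 matricellular genes and 21 macrophage markers were called higher, beside 14.6% of all genes, and 31 fatty acid genes, 36 complex I genes and 24 amino acid genes lower, beside 15.8%. As deposited the same counts were 18, 27 and 17 higher and 33, 37 and 25 lower, beside 5.97% and 21.7% of all genes.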

How the data were processed

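The authors' deposited table gives FPKM values per gene for 13 polyA libraries (100-nt paired reads of Trizol-extracted heart RNA, per the labels' protocols). FastQC 0.11.2, STAR 2.40, Cufflinks 2.2.1, Cuffdiff and build mm9 are named in the submitters' processing notes, with no order. The other libraries, of small RNA, were not used.

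Genes with a mean of 1 FPKM or more over the 13 libraries were tested with limma 3.58.1 in R 4.3.3 (lmFit, eBayes with trend) on log2(FPKM + 1), 3 animals against 3, with Benjamini-Hochberg adjustment and a threshold of 0.05. The pseudocount of 1 understates changes of low genes. The fit was repeated after dividing each library by its median ratio to the mean library, and tested on simulated data. Counts cannot be had from FPKM, so no count model was fitted. FPKM gives no depth, hence no counting error.

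The 51 gene lists, the comparison and the rule for named genes were chosen with earlier results of these data known. The rule names Myl2, the transgene rows, the 15 largest differences each way among genes called as deposited and aligned whose groups did not overlap (leaving out unnamed gene models and genes listed at 0 in 1 library beside values above 5 FPKM), a fixed set, and up to 4 genes per list with the smallest p as deposited. Sequences and motifs are from RefSeq (GRCm38.p6), to which 10307 of the 12980 tested genes matched by symbol.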

Additional observations from a re-analysis of the deposited data

Results flagged for a closer look

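The row named for the human transgene, hMyl2, was listed at 0 in the 6 libraries compared and in the control-virus mutants, but carried signal in libraries outside the comparison. In the libraries labelled shRNA 5, 6 and 7 it was at 229, 420 (419.6) and 317 FPKM, and in the library labelled shRNA 8 at 0. That library also stood apart from the other 3 in Gdf15 (274 FPKM, against 2.45 to 13.6) and Six3 (60.6 FPKM, against at most 0.09), near or above the mutants without shRNA, and so goes against its label. It drew attention because it is a signal in data that the comparison does not use, above the level in its control samples. The difference was not tested.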

How the results depend on the processing

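No paired analysis was possible because the 2 groups compared share no replicate numbers. Of the 5134 genes called as deposited, 934 were higher and 4200 lower. The split followed the scaling: 2333 higher and 2564 lower aligned, 2331 and 2497 after quantile normalization, and 4484 and 1543 at equal FPKM totals. It was 2386 and 2597 with sex as a covariate after alignment, and 2459 and 2702 with 12 aligned libraries (without shRNA replicate 8). With 13 libraries as deposited 2690 genes were called, 200 higher and 2490 lower. A mean of 5 FPKM left 611 higher, and no filter gave 3189 in all, 2520 lower. Leaving out 1 animal at a time gave 3594 to 7140 calls as deposited, 705 to 938 higher and 2819 to 6398 lower, with the most calls in all and the most lower without mutant 9 (742 higher). After alignment the same gave 1667 higher and 1882 lower without wild-type animal 2, 1895 and 2057 without 3, and 1935 and 2142 without 4; without mutant 9, 10 or 11 it gave 1948 and 2246, 2095 and 2355, and 2164 and 2406. The cause was not tested.

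Of the 3468 genes called both ways, 3 had the opposite sign after quantile normalization, 1 at equal FPKM totals and none under the other alternatives run. The share still called was 70.5% at equal FPKM totals, 72.4% with 13 libraries and 73.8% with no filter. Of 201 named genes called as deposited, 129 were called under all 26 alternatives. Acta1 turned to 0.22 after quantile normalization, 0.11 at equal FPKM totals, 0.14 without wild-type animal 3 (0.50 aligned) and 0.17 without mutant 11 (0.50 aligned), with a range of -1.10 to 0.17 as deposited. Fabp4 was 0.038 after quantile normalization, and at equal FPKM totals Psmb6 was 0.001 and Psmb2 0.010. Myh6, with its listed zeros, ran from -5.56 to 2.94 as deposited and up to 3.30 aligned when 1 animal was left out; it was 1.26 (1.51 aligned) without wild-type animal 3, and 1.16 (1.39 aligned) without wild-type animal 4. Fn1, without 1 animal at a time and as deposited, ran from -0.18 (without mutant 11) to 0.34, and it was 0.67 at equal FPKM totals.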

Other observations

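Wnt pathway genes rose in 8 of 23 cases and fell in 2, beside 6.96% and 19.8% of all genes. The receptor gene Fzd2 was at 2.25, 2.94 and 3.02 FPKM in the wild types and at 11.5, 6.99 and 10.6 FPKM in the mutants, a difference of 1.85. The secreted antagonist genes Wif1 (1.93), Dkk3 (1.99), Sfrp1 (1.46), Sfrp2 (1.50) and Frzb (1.40) rose, while Wnt11 (-0.94) and Fzd4 (-0.67) fell. Of these, Sfrp1, Sfrp2, Frzb, Wnt11 and Fzd4 were chosen after their values were seen.

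Cell cycle genes rose in 5 of 27 cases and fell in 2. The proliferation marker Mki67 was at 1.28, 0.86 and 1.20 FPKM against 4.18, 3.33 and 3.29 FPKM, and Top2a, Plk1, Aurkb and Bub1b also rose from levels near 1 FPKM. Cenpf moved the other way, from 20.9, 11.6 and 11.4 FPKM to 2.77, 1.30 and 1.51 FPKM, and Mcm2 fell by 0.66. Among 22 p53 targets Plk2 (1.81), Phlda3 (1.76) and Cdkn1a (1.29) rose, and Gadd45a (-1.05) and Ccng1 (-0.73) fell. In the list of muscle atrophy and Foxo genes 6 of 19 fell, among them Foxo3 (-0.68) and Usp2 (-1.12), and 1, Uchl1, rose. Over all genes 19.8% fell and 6.96% rose. At equal FPKM totals 1 list member was called lower and 7 higher, beside 11.9% and 34.5% of all genes. This list thus has no direction that holds across scalings. Of these, Plk1, Aurkb, Bub1b and Cdkn1a were chosen after their values were seen.

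Of the remaining cell markers, 2 of 8 neutrophil and mast cell genes rose (S100a8 and Csf3r), 2 of 10 mesothelial genes rose (Krt18 and Aldh1a2), 2 of 4 adipocyte genes fell (Lipe, and Fabp4, which was at 0.038 after quantile normalization) and 2 of 6 skeletal muscle genes fell (Tnnt1 and Cacna1s). In the Schwann cell and neuronal list Tubb3 rose (2.07) and Gfra3 fell (-0.81), of 8. Of 9 liver genes 1 fell (Hp, chosen after its value was seen), and the list summed to 33.0 to 204 FPKM in the wild types and 45.0 to 55.4 FPKM in the mutants. None of the 6 sex-linked genes was called both ways. These are small counts, and over all genes 6.96% rose and 19.8% fell.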
